A study of Mus musculus with 4 samples.

Results

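Ribosomal protein genes of the cytosolic ribosome were followed in liver mononuclear cells measured by droplet single-cell RNA sequencing. Members were chosen by name alone, as every gene whose symbol was Rpl or Rps followed by a number, with or without a final a, x or l, together with *Rplp0*, *Rplp1*, *Rplp2* and *Rpsa*, and symbols ending in -ps were left out. This rule took 80 of the 31053 genes in the count tables, 49 of the large ribosomal subunit and 31 of the small subunit, and all 80 were annotated as protein coding. Cells came from C57BL/6 mice 8 to 10 weeks old in 4 groups. Naïve mice received no ConA, a lectin from jack beans that activates T cells and so inflames the liver. The other 3 groups received ConA with vehicle (ConA+Veh), with TCDD (ConA+TCDD) or with FICZ (ConA+FICZ), and their cells were taken 24 h after ConA. TCDD, a dioxin, and FICZ, a tryptophan photoproduct, are both ligands of the aryl hydrocarbon receptor. Each group was 1 library, and how many mice it pooled is not given in the sources used here. No group therefore had a replicate, no p-value between groups could be given, and the intervals printed are 95% intervals that cover counting error only.

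Ribosomal proteins assemble with ribosomal RNA into a small subunit, which reads the messenger RNA, and a large subunit, which joins amino acids. Their messengers are among the most abundant in lymphocytes and begin with a run of pyrimidine bases, the terminal oligopyrimidine tract, through which the mTOR pathway adjusts their translation in resting and dividing cells. Most of the proteins have a single expressed gene, and a few have a close relative, such as *Rps27l* beside *Rps27*, *Rpl3l* beside *Rpl3*, *Rpl10l* beside *Rpl10* and *Rpl39l* beside *Rpl39*.

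The starts of 8 members that had an entry in the RefSeq table and are described below are printed here because the pyrimidine tract lies at the transcript start. The 8 are a choice. *Rps18* is among them although it stayed within 1.5-fold in B and T cells in each comparison with all gated cells counted. Members with larger differences are left out, both with a tract (*Rpl15*, *Rpl7a*) and without (*Rps7*, *Rps28*). The 8 starts therefore do not show how common the tract is among such members. Each window holds the 10 bases before and the 20 bases from an annotated RefSeq start on GRCm38.p6, read along the transcribed strand, and capitals mark a C followed by at least 6 further bases that are C or T.
*Rps27*, chr3:90213629-90213658, minus strand: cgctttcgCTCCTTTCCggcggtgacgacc
*Rps27l*, chr9:66946076-66946105, plus strand: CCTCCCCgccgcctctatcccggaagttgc
*Rpl13a*, chr7:45128726-45128755, minus strand: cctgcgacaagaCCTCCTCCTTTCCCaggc
*Rpl38*, chr11:114668570-114668599, plus strand: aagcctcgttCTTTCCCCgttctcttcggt
*Rps18*, chr17:33955646-33955675, minus strand: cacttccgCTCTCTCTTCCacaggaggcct
*Rpl14*, chr9:120571507-120571536, plus strand: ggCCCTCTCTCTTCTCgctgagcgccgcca
*Rps2*, chr17:24720053-24720082, plus strand: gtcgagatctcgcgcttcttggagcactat
*Rplp0*, chr5:115559457-115559486, plus strand: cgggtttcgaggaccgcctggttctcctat
In *Rps27l* the capitals lie wholly before the annotated start. The tract was found within such a window for 29 of the 60 members in the RefSeq table, or 48.3%, against 15.6% of all 27025 genes in it. Counted by window, it was in 29 of 72 member windows, or 40.3%, against 13.5% of all 32851. A tract that reached into the transcript was found for 25 of the 60 members (41.7%) and for 12.4% of all genes. The search used the transcribed strand only, and an annotated start can lie away from the one used in these cells.

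The 4 libraries held 1880 to 2779 cells and 5952445 to 19252211 UMIs, with a median of 2161 UMIs per cell in Naïve and 3147 to 3984 in the ConA groups. Pairs of libraries shared 4 to 15 cell barcodes. Cells were assigned to a type when they held UMIs of several of its markers. The summed level of the 6 B cell markers was 3863 to 8496 UMIs per 1000000 UMIs (CPM) in B cells and at most 23.6 CPM in T, NK and mononuclear phagocyte cells, and the 5 T cell markers reached 1672 to 2795 CPM in T cells and at most 25.4 CPM in B cells. T cells held 626 to 839 CPM of the CD8 genes *Cd8a* and *Cd8b1* and 31.3 to 67.6 CPM of *Cd4*. Hepatocyte markers, whose RNA can float free in a liver digest, ranged from 1.40 to 91.2 CPM in B cells and from 4.03 to 36.0 CPM in T cells over the libraries, and their part in the levels below was not tested.

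Members supplied 16239651 of 53299662 UMIs. The most abundant over all cells were *Rpl41*, which encodes the smallest ribosomal protein, *Rps20*, *Rpl13*, *Rps24* and *Rpsa*. *Rpl41* stood at 8144 CPM in Naïve, 9725 in ConA+Veh, 10865 in ConA+TCDD and 9639 in ConA+FICZ. At the other end, *Rpl10l*, known from testis, had 0 of all UMIs, which allows up to 0.0563 CPM, *Rpl3l*, known from heart and skeletal muscle, had 29 UMIs, and *Rpl39l* had 57. Those 3 genes stayed below 100 UMIs and enter no ratio, while each of the other 77 members had more than 1000. *Rpl13a* and *Rps27l* were next lowest, with 15250 and 18989 UMIs. Read counting by Cell Ranger keeps reads that fit 1 gene, so members with near copies elsewhere, such as *Rpl10* and *Rpl10l* or the genes with listed pseudogenes, may be counted low. *Rpl13a* and *Rps27*, whose levels are described below, may be among them, and this could not be checked without the reads. The 9 features with a -ps suffix held 12374 UMIs, or 0.0762% of the members' sum.

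Of the 5 cell types described here, B cells and T cells gave the largest part of their UMIs to ribosomal protein genes and neutrophils the smallest. In B cells the members' summed share of UMIs was 30.6% in Naïve, 35.7% in ConA+Veh, 35.8% in ConA+TCDD and 37.0% in ConA+FICZ. T cells held 33.6%, 33.1%, 34.8% and 34.3% in the same order. NK cells held 20.2%, 23.8%, 26.1% and 24.8%. Mononuclear phagocytes (monocytes, macrophages and dendritic cells) held 19.2% of their UMIs in members both in Naïve and after ConA+Veh, against 16.8% after ConA+FICZ, and 29 such cells of ConA+TCDD held 20.9%. B and T cells were above NK cells, and NK cells above mononuclear phagocytes, in 4 of 4 libraries, although the last gap was narrow in Naïve (20.2% against 19.2%). With 4 libraries an exact two-sided sign-flip test cannot go below p = 0.125. The order of B and T cells was not the same in all libraries, since T cells were higher in Naïve and B cells were higher after ConA. Neutrophils, short-lived granulocytes with little RNA, held 4.06% in 99 cells of ConA+Veh and 2.60% in 246 cells of ConA+FICZ, and the few in Naïve (22 cells) and ConA+TCDD (39 cells) held 2.06% and 3.52%. Between those larger neutrophil samples, 43 of the 69 members with at least 100 UMIs were at least 1.5-fold lower in ConA+FICZ than in ConA+Veh and none was higher, beside 8.68% lower and 16.8% higher of all 1014 genes. In the same neutrophils the T cell markers summed to 52.1 CPM in ConA+Veh and 9.55 CPM in ConA+FICZ. The B cell markers summed to 28.1 and 4.77 CPM. The part of such lymphocyte RNA in the difference between these neutrophil samples was not tested.

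**Figure D1:**
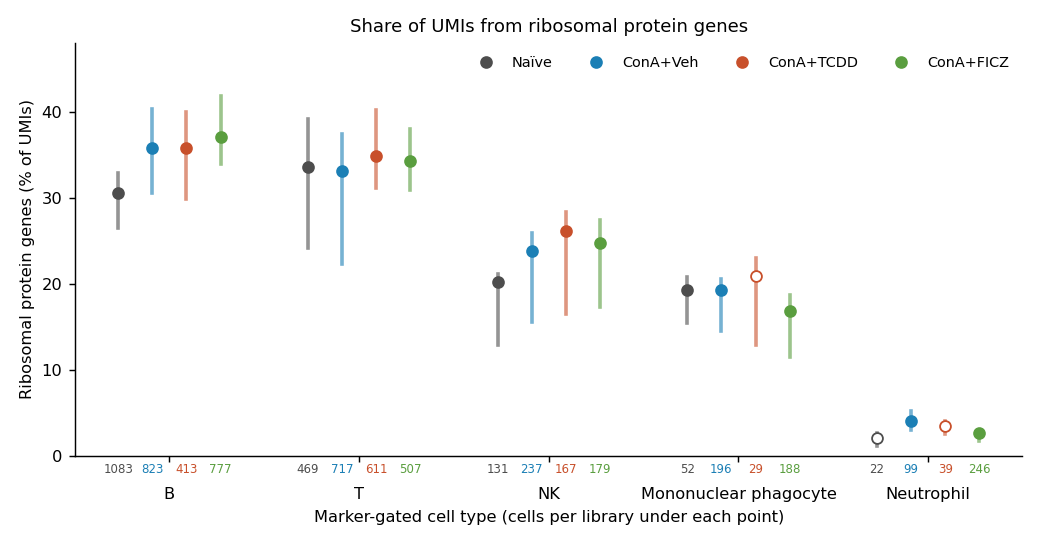
Share of all UMIs that came from ribosomal protein genes (percent, vertical axis) in 5 marker-gated cell types, with 1 point per library for the summed UMIs and a line from the lower to the upper quartile over cells. Open points rest on fewer than 50 cells. B and T cells sit above 30% in each library, mononuclear phagocytes between 16.8% and 20.9%, and neutrophils at or below 4.06%.

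In the mixture of ribosomal protein messengers, *Rps27l* stood apart between the cell types compared. When each member was taken as a share of the ribosomal protein UMIs of its cell type, *Rps27l* was the 1 member of 77 that differed by at least 1.5-fold in 4 of 4 libraries between mononuclear phagocytes and B cells, with log2 ratios of 1.75 to 3.24. It was likewise alone between mononuclear phagocytes and T cells, with 1.15 to 2.37. Between T and B cells, NK and B cells, and NK and T cells, no member passed 1.5-fold in all libraries. Smaller differences kept their direction in 4 of 4 libraries. *Rpl10*, whose protein joins the large subunit late, was higher in NK than in T cells by 0.49 to 0.57 log2, and *Rpl12* and *Rps2* were lower by 0.40 to 0.62. *Rps27* was lower in T than in B cells by 0.33 to 0.47 log2.

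The comparison of ConA+Veh with Naïve sets ConA with vehicle against no ConA. With 1 library each, an effect of the lectin cannot be told apart from other differences between the libraries. In B cells the summed level was higher by 0.22 log2 (0.22 to 0.23), or 1.17-fold, and in NK cells by 0.24 log2 (0.22 to 0.25), or 1.18-fold. In T cells the sum differed by -0.021 log2 (-0.025 to -0.017) and in mononuclear phagocytes by 0.00025 log2 (-0.012 to 0.012). Counting error around these sums is small, but the spread between mice is unknown. The B and NK cell values were positive under every alternative tried, whereas the T cell value was not: it was -0.74 log2 in cells with 1000 to 5000 UMIs, a depth at which 46.9% of the ConA+Veh T cells and 5.53% of the Naïve T cells had more than 10% mitochondrial UMIs, and -0.092 in the cells of that depth with at most 10%. It was 0.036 without cells under 200 genes or over 10% mitochondrial UMIs, 0.041 as a median over cells, 0.028 in Leiden clusters and 1.58 for mean UMIs per cell, so that no direction is given for T cells. Per cell, without division by depth, the mean number of ribosomal protein UMIs went from 754 to 2036 in B cells and from 1261 to 3767 in T cells. Their median went from 626 to 1583 in B cells and from 904 to 2737 in T cells. The median of all UMIs per cell went from 2123 to 4187 and from 2734 to 8073.

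Large and small subunit genes did not move by the same amount. The ratio of large to small subunit UMIs in B cells was 1.19 in Naïve and 1.27 to 1.29 in the 3 ConA libraries. In T cells it was 1.23 in Naïve and 1.30 to 1.31 after ConA. In NK cells the order was the other way, with 1.37 in Naïve and 1.32 to 1.35 after ConA. Mononuclear phagocytes had the same order as NK cells, with 1.36 in Naïve and 1.29 to 1.35 after ConA. Among the T cell states described below, Naïve was lower in naive-type cells (1.19 against 1.27 to 1.30) and other cells (1.27 against 1.29). It was not lower in cycling cells (1.32 in 13 cells against 1.30 to 1.32). The part of the states in the T cell ratio was not tested.

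Some single members differed more than their sum, in both directions, but members were not called more often than genes at large. A member was called higher or lower when its CPM differed by at least 1.5-fold, among genes with at least 100 UMIs in both libraries together. In B cells 11 of 77 members were higher and 3 lower in ConA+Veh, against 17.1% higher and 30.9% lower of all 6120 genes. Their median was 0.28 log2, and that of all genes -0.20. In T cells 4 were higher and 8 lower, against 20% and 22.2% of all genes, with medians of 0.054 and -0.042. In T cells of 1000 to 5000 UMIs 1 was higher and 48 lower, and in such cells with at most 10% mitochondrial UMIs 2 and 6. The shares of all genes were not computed at that depth. In NK cells 11 were higher and 2 lower, against 22.4% and 16%. In mononuclear phagocytes none was higher and *Rpl13a* alone was lower, against 11.6% and 11.2%. With all gated cells counted, members were thus called less often than all genes in each direction in all 4 types. Across the 4 types, 30 members were above Naïve in every type and 8 were below it in every type, but all 4 types come from the same 2 libraries. The same counts over all genes were not made.

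*Rps27* and *Rps27l* lay at opposite ends of the list. *Rps27* (ENSMUSG00000090733, chromosome 3, 90212522 to 90213651, minus strand, GRCm38) encodes a zinc-finger protein of the small subunit. In B cells it stood at 8946 CPM in Naïve, 3960 in ConA+Veh, 4016 in ConA+TCDD and 3970 in ConA+FICZ. In T cells the levels were 7157, 2657, 3120 and 2791 CPM. Naïve was above every ConA library in both types, and the ConA+Veh ratio was -1.18 log2 (-1.20 to -1.15) in B cells and -1.43 (-1.46 to -1.40) in T cells. NK cells went from 4699 to 2971 CPM (-0.66 log2) and mononuclear phagocytes from 2154 to 1560 CPM (-0.47 log2), the latter inside the 1.5-fold limit.

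*Rps27l* (ENSMUSG00000036781, chromosome 9, 66946086 to 66949516, plus strand) has a coding length of 252 bases, as has *Rps27*, and is known as a target gene of p53. In B cells it stood at 67.3 CPM in Naïve, 244 in ConA+Veh, 287 in ConA+TCDD and 251 in ConA+FICZ. In T cells the levels were 135, 405, 415 and 443 CPM, so that every ConA library was above Naïve. The ConA+Veh ratio was 1.85 log2 (1.63 to 2.09) in B cells, 1.58 (1.39 to 1.78) in T cells, 1.22 (0.63 to 1.85) in NK cells and 0.41 (0.15 to 0.68) in mononuclear phagocytes. Mononuclear phagocytes already held 401 CPM in Naïve, the highest Naïve level of these 4 types. The ratio to Naïve of *Rps27* stayed between -1.81 and -0.79 log2, and that of *Rps27l* between 1.5 and 2.5, over 6 settings in B and T cells.

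**Figure D2:**
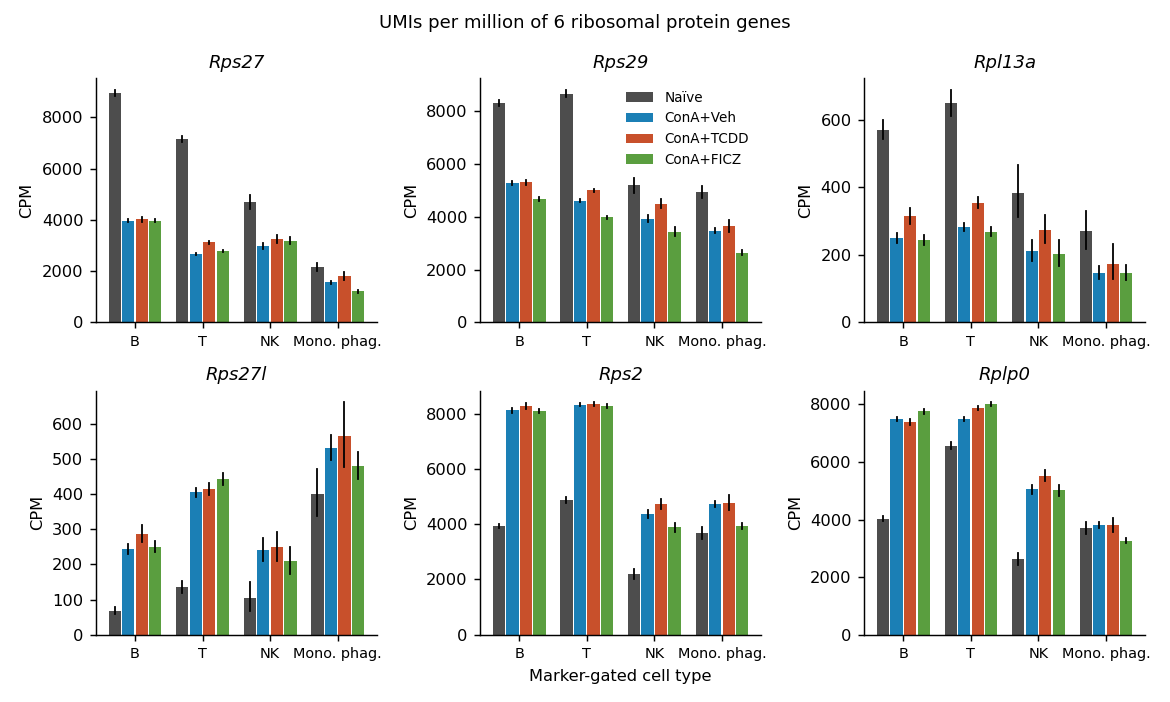
CPM (vertical axis from 0) of 6 ribosomal protein genes in 4 marker-gated cell types, 1 bar per library with exact 95% Poisson intervals for counting error. *Rps27*, *Rps29* and *Rpl13a* are highest in Naïve in all 4 types, and *Rps27l* and *Rps2* are lowest in Naïve in all 4 types.

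Other small subunit genes shared the lower level after ConA. *Rps29* (chromosome 12, 69157722 to 69159186), a short zinc-binding protein of the small subunit, stood at 8295 CPM in Naïve B cells and at 5277, 5294 and 4668 CPM in ConA+Veh, ConA+TCDD and ConA+FICZ, and in T cells at 8654, 4605, 5006 and 3973 CPM. Its ConA+Veh ratio was -0.65 log2 in B cells and -0.91 in T cells. *Rps28* was at 6329 CPM in Naïve and 3898 in ConA+Veh T cells (-0.70 log2), and -0.24 in B cells. In T cells *Rps7*, *Rps21* and *Rps24* were also called lower, with -0.73, -0.68 and -0.64 log2. The opposite was seen for *Rps2* (chromosome 17, 24718116 to 24721929), whose protein lines the messenger entry of the small subunit. It went from 3943 CPM in Naïve to 8125 in ConA+Veh B cells, 1.04 log2 higher (1.01 to 1.07), from 4864 to 8334 CPM in T cells and from 2202 to 4379 CPM in NK cells. In T cells of 1000 to 5000 UMIs the *Rps2* ratio was 0.079 in place of 0.78. *Rps27a*, which encodes a fusion of ubiquitin with a small subunit protein, was called higher in B cells with 0.61 log2. *Rpsa*, known also as a laminin receptor precursor, was 0.53 log2 higher in B cells and 0.38 in T cells, and the X-linked *Rps4x* 0.40 and 0.21, all inside the limit.

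Among large subunit genes *Rpl13a* (ENSMUSG00000074129, chromosome 7, 45125558 to 45128761, minus strand), whose protein also takes part in interferon-dependent translational control, was lower in every type. It stood at 571 CPM in Naïve B cells and at 250, 315 and 244 in ConA+Veh, ConA+TCDD and ConA+FICZ, and at 650, 282, 355 and 269 CPM in T cells. The 3 ConA libraries lay below Naïve throughout. The ConA+Veh ratio was -1.19 log2 in B cells, -1.20 in T cells, -0.85 (-1.21 to -0.49) in NK cells and -0.88 (-1.23 to -0.52) in mononuclear phagocytes. *Rpl38* was called lower in T cells (6025 to 3849 CPM, -0.65 log2) and stood 0.35 log2 lower in B cells. *Rpl37a* (chromosome 1, 72711290 to 72713813) was at 6217 CPM in Naïve, 5053 in ConA+Veh, 4882 in ConA+TCDD and 5306 in ConA+FICZ B cells. It was at 6453, 4886, 5068 and 5030 CPM in T cells, which gave ConA+Veh ratios of -0.30 and -0.40 log2, inside the limit.

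The stalk genes did not behave alike. *Rplp0* (chromosome 5, 115559467 to 115563727), the base of the ribosomal stalk on which the acidic proteins of *Rplp1* and *Rplp2* are mounted, went from 4035 CPM in Naïve to 7487 in ConA+Veh B cells (0.89 log2, 0.86 to 0.92) and from 2620 to 5046 CPM in NK cells (0.95 log2). In T cells it went from 6564 to 7487 CPM (0.19 log2), and the T cell value changed sign, to -0.49, in cells of 1000 to 5000 UMIs. *Rplp1* had ratios of 0.34 log2 in B cells and -0.11 in T cells, and *Rplp2* of 0.36 and 0.0045. The remaining large subunit genes called higher in B cells were *Rpl14*, *Rpl15*, *Rpl10a*, *Rpl7a*, *Rpl3*, *Rpl29* and *Rpl32*, with ratios from 0.59 to 0.84 log2. *Rpl14* and *Rpl7a* were called higher in T cells also, with 0.65 and 0.67 log2, although *Rpl14* stood at -0.27 in T cells of 1000 to 5000 UMIs.

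**Figure D3:**
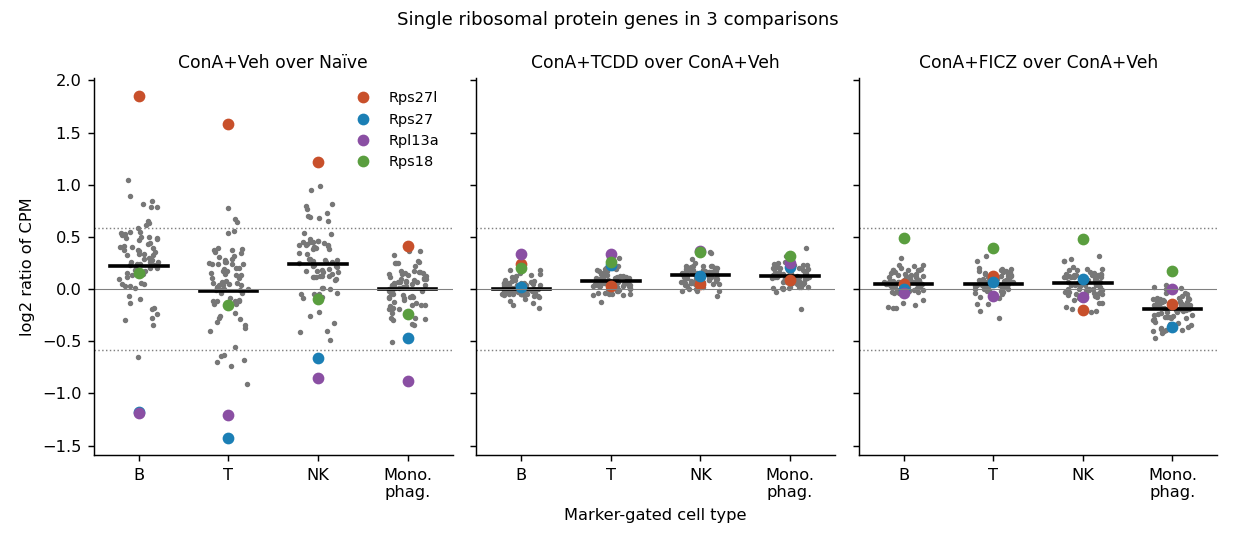
Log2 ratio of CPM (vertical axis) of each of 77 ribosomal protein genes in B, T, NK and mononuclear phagocyte cells, for 3 comparisons. Grey points are single genes, with *Rps27l*, *Rps27*, *Rpl13a* and *Rps18* in colour, black bars are the ratio of the summed CPM, and dotted lines mark 1.5-fold. Points spread past both lines for ConA+Veh over Naïve, and none crosses a line for ConA+TCDD or ConA+FICZ over ConA+Veh with all gated cells counted.

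T cells of different states differed in their ribosomal protein share, and the states were unequally filled. T cells were divided by markers into naive-type cells (at least 2 of 5 markers, among them *Ccr7* and *Lef1*, without the cycling markers), cycling cells (at least 2 of *Mki67*, *Top2a*, *Birc5*, *Cdk1* and *Ccna2*) and other cells. Naive-type cells made up 51.0% of Naïve T cells, 22.0% in ConA+Veh, 32.1% in ConA+TCDD and 31.6% in ConA+FICZ. Cycling cells were 13 of 469 T cells in Naïve, 430 of 717 in ConA+Veh, 232 of 611 in ConA+TCDD and 189 of 507 in ConA+FICZ. Deeper cells reach 2 markers more easily, and cycling cells had median depths of 12651 to 20081 UMIs against 2104 to 4316 in the other cells. Naive-type cells held 38.1%, 38.4%, 38.9% and 37.5% of their UMIs in ribosomal protein genes, cycling cells 32.0%, 32.6% and 32.3% in the 3 ConA libraries, and 29.5% in the 13 cycling cells of Naïve. In each library cycling cells lay below naive-type cells, by 0.21 to 0.37 log2. The other T cells held 28.2%, 33.6%, 37.9% and 36.6%. The ConA+Veh sum was 0.26 log2 above Naïve in the other T cells, 0.011 in naive-type cells and 0.12 in cycling cells, against -0.021 in all T cells. Over the settings tried, the value of the other T cells ranged from 0.11 to 1.02. That of naive-type cells ranged from -0.42 to 0.98 and that of cycling cells from -0.27 to 0.23, so no direction is given for them. The part of the unequal filling of the states in the value of all T cells was not tested.

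Within naive-type cells *Rps27* went from 8708 CPM in Naïve to 3719 in ConA+Veh (-1.23 log2) and *Rps27l* from 119 to 393 CPM (1.73 log2). In the other T cells the ratios were -0.83 and 1.96 log2. In cycling cells, 13 of them in Naïve, *Rps27* stood at 2972 and 2365 CPM (-0.33 log2) and *Rps27l* at 361 and 422 CPM (0.23 log2), so that the few Naïve cycling cells resembled the ConA cells more than other Naïve T cells did in both genes. *Rpl13a* was lower in all 3 states, by 1.13, 1.11 and 1.06 log2 in naive-type, cycling and other cells.

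**Figure D4:**
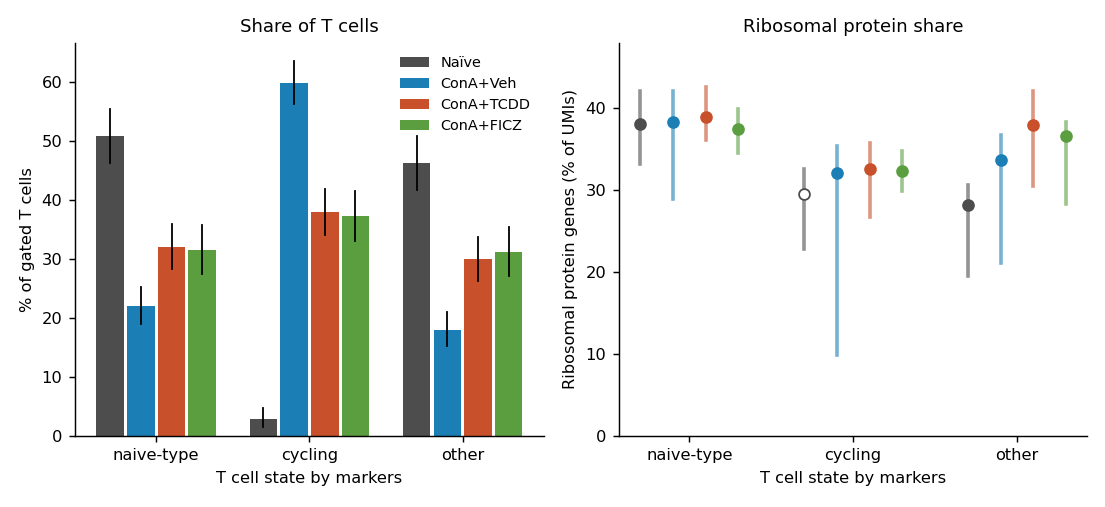
Left, share of gated T cells in each of 3 marker-defined states (percent, with exact 95% binomial intervals). Right, share of UMIs from ribosomal protein genes in each state (percent), a point for the summed UMIs of a library and a line between the quartiles over cells, with the 13 cycling Naïve cells as an open point. Naive-type cells sit between 37.5% and 38.9% in the 4 libraries and cycling cells of the ConA libraries between 32.0% and 32.6%.

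Cells rich in mitochondrial UMIs were mostly poor in ribosomal protein UMIs, though not to the same degree in each library. Among ConA+Veh T cells, the 201 with 2.5% to 5% mitochondrial UMIs had a median ribosomal protein share of 36.1%, while the 94 with 10% to 20% had 4.49% and the 59 with more had 3.61%. The same bands gave 36.2%, 19.0% and 3.34% in Naïve T cells, the last from 6 cells. In ConA+FICZ, cells with 10% to 20% still had medians of 25.7% in T cells (40 cells) and 27.6% in B cells (38 cells). Cells over 10% made up 21.3% of T cells in ConA+Veh, 12.6% in ConA+TCDD, 11.05% in ConA+FICZ and 7.04% in Naïve, and the T cell sums without them stand beside each result.

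The comparison of ConA+TCDD with ConA+Veh sets the dioxin against vehicle after ConA, again with 1 library each. The summed level differed by 0.0026 log2 (-0.0013 to 0.0065) in B cells, by 0.075 (0.072 to 0.077) in T cells, by 0.13 (0.12 to 0.14) in NK cells and by 0.12 (0.11 to 0.13) in mononuclear phagocytes, of which ConA+TCDD had 29. Over 7 settings the NK cell value ranged from 0.0011 to 0.15, and that of mononuclear phagocytes from 0.081 to 0.31. The median share over NK cells was 21.8% both in ConA+Veh and in ConA+TCDD. In T cells the value was 0.046 without cells over 10% mitochondrial UMIs, 0.63 in cells of 1000 to 5000 UMIs and 0.29 in such cells with at most 10% mitochondrial UMIs. No member differed by 1.5-fold in any of the 4 types when all their cells were counted. In T cells of 1000 to 5000 UMIs, however, 47 members were higher by that much, among them *Rplp0* with 0.84 and *Rpl38* with 0.83 log2, and 2 were in such cells with at most 10% mitochondrial UMIs. With all cells counted, 3.54% of all genes were higher and 3.87% lower in B cells, and 1.43% and 3.56% in T cells. These shares were 1.14% and 3.15% in NK cells, and 4.53% and 11.1% in mononuclear phagocytes. For cells of 1000 to 5000 UMIs the shares of all genes were not computed, so the counts there have no such frame. Cells that met no gate are outside these values and differed more between libraries. They held 19.6% of their UMIs in members in ConA+Veh (400 cells), 28.6% in ConA+TCDD (430 cells) and 25.2% in ConA+FICZ (292 cells). Which cell types they were, and their part in any difference, was not tested.

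The highest ratio belonged to *Rpl13a* in B, T and NK cells, with 0.33 (0.19 to 0.47), 0.33 (0.25 to 0.42) and 0.37 (0.056 to 0.68) log2, so that its level lay between those of ConA+Veh and Naïve. *Rpl38* and *Rps7* followed in T cells with 0.30 and 0.29 log2. *Rps18* (chromosome 17, 33951999 to 33956001), a protein of the head of the small subunit, was 0.20 log2 higher in B cells, 0.36 in NK cells and 0.31 in mononuclear phagocytes. *Rps9* was the lowest member in B and T cells with -0.18 and -0.12 log2. In B cells *Rpl10* came next with -0.15, in T cells *Rpsa* and *Rpl10a* with -0.061 and -0.056, and in mononuclear phagocytes *Rplp2* stood at -0.19. *Rpl17* was the highest member there with 0.40 log2. In all, 36 of 77 members were above ConA+Veh in all 4 types and none was below it in all 4. The summed ratio was above 0 in each type too, though in B cells only by 0.0026 log2. Mononuclear phagocytes of ConA+TCDD were 29 cells, and the same count over all genes was not made.

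The comparison of ConA+FICZ with ConA+Veh uses the same ConA+Veh library, so both sets of ratios carry whatever is particular to it. The summed level differed by 0.051 log2 (0.048 to 0.055) in B cells, 0.052 (0.049 to 0.054) in T cells and 0.055 (0.045 to 0.065) in NK cells. In mononuclear phagocytes, 196 and 188 cells, it was lower by -0.20 log2 (-0.20 to -0.19), and 72 of 77 members were below ConA+Veh there. The number of all genes below ConA+Veh is not given beside that count. In the cells gated as mononuclear phagocytes the 6 neutrophil markers summed to 76.7 CPM in Naïve, 1288 in ConA+Veh, 96.6 in ConA+TCDD and 443 in ConA+FICZ, and the 5 cycling markers went from 405 CPM in ConA+Veh to 186 in ConA+FICZ, and their part in this difference was not tested. The T cell value was -0.0049 without cells over 10% mitochondrial UMIs and 0.53 in cells of 1000 to 5000 UMIs. Again no member differed by 1.5-fold in the 4 types with all cells counted, against 3.57% higher and 2.41% lower of all genes in B cells, 1.99% and 5.74% in T cells, 3.04% and 5.61% in NK cells, and 8.81% and 3.56% in mononuclear phagocytes. In cells of 1000 to 5000 UMIs 1 member in B cells and 29 in T cells were higher by at least 1.5-fold, *Rps18* in both (0.74 and 0.89 log2) and *Rpl37a* in T cells (0.62). With at most 10% mitochondrial UMIs as well, *Rps18* alone passed in B cells (0.69) and *Rps27l* alone, lower, in T cells (-0.61). The shares of all genes were not computed at that depth.

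*Rps18* was the highest member in all 4 types. In B cells it stood at 2827 CPM in Naïve, 3149 in ConA+Veh, 3628 in ConA+TCDD and 4407 in ConA+FICZ, and in T cells at 3518, 3173, 3794 and 4179 CPM. Its level in ConA+FICZ was thus the highest of the 4 libraries in both types, with ratios to ConA+Veh of 0.49 (0.45 to 0.52) in B cells, 0.40 (0.37 to 0.42) in T cells, 0.48 (0.38 to 0.59) in NK cells and 0.18 (0.093 to 0.26) in mononuclear phagocytes. *Rps15*, *Rpl31*, *Rpl23a* and *Rps25* came next in 1 or more lymphocyte types, with 0.23 to 0.32 log2. *Rpl6* (chromosome 5, 121204481 to 121209241) was the lowest member in B, T and NK cells. It stood at 4283, 5261, 5193 and 4635 CPM in B cells and at 4441, 5275, 5378 and 4341 CPM in T cells, in the same order of groups as for *Rps18*. Its ratios to ConA+Veh were -0.18, -0.28 and -0.22 log2 in B, T and NK cells, and the T cell value turned to 0.21 in cells of 1000 to 5000 UMIs. *Rps29*, *Rps28* and *Rpl38* came next in 1 or more lymphocyte types with -0.15 to -0.21 log2. In cells of 1000 to 5000 UMIs their T cell values turned to 0.43, 0.57 and 0.46, and that of *Rps29* in B cells to 0.083. In mononuclear phagocytes *Rps21*, *Rps28* and *Rpl36a* were lowest with -0.47, -0.42 and -0.40.

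Shorter members had on the whole lower ConA+Veh ratios than longer ones in B, T and NK cells, though their median in B cells was still above 0. Over 77 members, Spearman's rho between coding length and the ConA+Veh over Naïve log2 ratio was 0.41 in B cells, 0.45 in T cells and 0.39 in NK cells, and 0.057 in mononuclear phagocytes. The 37 members under the median coding length of 453 bases had a median ratio of 0.20 log2 in B cells and -0.034 in T cells, and the other 40 had 0.37 and 0.15. For ConA+TCDD over ConA+Veh rho was -0.30 in B cells and -0.48 in T cells, and these ratios share the ConA+Veh library. The points are genes of the same libraries and not replicates. Members were also split into 28 with and 29 without a pyrimidine tract found near an annotated start. Their median ConA+Veh ratios were 0.25 and 0.27 log2 in B cells, 0.057 and 0.017 in T cells, and 0.31 and 0.22 in NK cells. In mononuclear phagocytes they were 0.028 and 0.013. An annotated start can lie away from the one used, so members without a found tract may still carry one. A relation of the ratios to the tract was therefore not tested by this split.

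**Figure D5:**
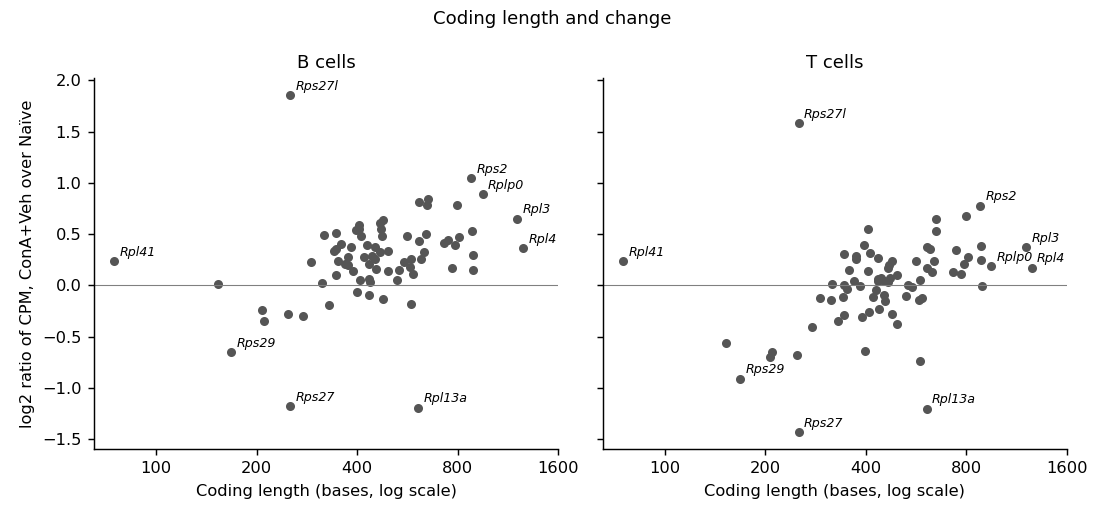
Log2 ratio of CPM in ConA+Veh over Naïve (vertical axis) against coding length in bases (horizontal log axis) for 77 ribosomal protein genes in B cells (left) and T cells (right), 1 point per gene. *Rps29* and *Rps27* are short and low and *Rps2* is long and high, while *Rpl41*, the shortest, stands at 0.24 in both types and *Rps27l* is short and high.

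Other genes of the translation machinery gave a frame for these values. Mitochondrial ribosomal protein genes were called higher in ConA+Veh for 57 of 75 in B cells and 50 of 77 in T cells, with medians of 0.80 and 0.70 log2, beside 0.28 and 0.054 for the cytosolic members. For this and the next lists, 17.1% of all genes were called higher and 30.9% lower in B cells, and 20% and 22.2% in T cells. Ribosome biogenesis genes were called higher for 16 of 37 in B cells and 17 of 40 in T cells, with medians of 0.53 and 0.44 log2. *Ncl*, nucleolin, went from 379 to 626 CPM in B cells and from 708 to 1379 CPM in T cells. Among 15 translation factor and related genes with a known pyrimidine tract, 5 were called higher in B cells and 2 in T cells, none lower, and *Npm1*, nucleophosmin, had the highest B cell ratio at 1.5 log2 (638 to 1805 CPM). Of 7 ribosomal or ribosome-bound protein genes outside the naming rule, 2 were higher and 2 lower in B cells. *Rpl36al* was lower by -0.87 log2 in B cells and -1.11 in T cells.

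With TCDD the biogenesis genes stood apart from the ribosomal protein genes in B cells, where 8 of 38 were called higher than in ConA+Veh and none lower, with a median of 0.41 log2 beside -0.0013 for the members and 0.037 for all genes, of which 3.54% were called higher. In T cells none of 40 was called, with a median of 0.24 log2, beside 1.43% of all genes called higher. In ConA+FICZ 2 of 39 were called higher in B cells and 2 of 40 in T cells, with medians of 0.25 and 0.27 log2, beside 3.57% and 1.99% of all genes. Mitochondrial ribosomal protein genes had medians of 0.095 and 0.043 log2 with TCDD and 0.032 and 0.072 with FICZ in B and T cells. No test of these lists was made, since each group is 1 library, and no alternative setting was run for them. B cells with at least 2 of *Mreg*, *Cd86* and *Cd200* were 57 of 413 in ConA+TCDD and 33 of 823 in ConA+Veh. Over all B cells these 3 activation markers summed to 173 and 79.1 CPM. The part of this difference in the biogenesis gene values of B cells was not tested.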

How the data were processed

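Liver mononuclear cells of 4 groups, 1 library each, were measured by the authors with the 10x Genomics 5′ assay. The deposited values are raw UMI counts per gene and cell, which the authors made with Cell Ranger 3.0.2 on mm10. UMIs count transcript ends, so levels were not divided by length. Members and gene lists were chosen with earlier results of these data known.

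Cells were gated by distinct detected markers, at least 2 for B (of 6), T (of 5) and NK cells (of 6) and at least 3 for other types. Cells meeting several gates were left out (1.44% to 3.95% of a library), which was the only treatment of doublets, and cells meeting both the T and NK gates were kept apart and not described. Cells meeting none were left out too (8.01% to 22.9%). UMI counts were summed per gate and library and divided by all UMIs of the gate. Intervals were exact (Poisson for levels, Clopper-Pearson for shares, and the exact binomial distribution for ratios) at 95%. No test between groups was possible with 1 library each. A ratio of at least 1.5-fold with at least 100 UMIs in both libraries was called. No column of other samples was present (0). Genes named are the stalk genes, *Rpsa*, *Rpl37a*, members ending in l or x with their partners, the 5 highest and 5 lowest members, and the 3 largest differences each way in each comparison and type. Further called members, and the *Ncl*, *Npm1* and *Rpl36al* values, were named after their values had been seen. A few genes that the rules take are not reported here. The computation of the ratios was run on simulated Poisson counts. These held no variation between cells or libraries, so that run does not bear on such variation. Alternatives were a filter on cells with under 200 genes or over 10% mitochondrial UMIs, cells of 1000 to 5000 UMIs, medians over cells, mean UMIs per cell, totals without mitochondrial genes, and Leiden clusters (30 principal components, 15 neighbours, resolution 1). Scripts ran in Python 3.11.15 with igraph 0.11.9, leidenalg 0.10.2, matplotlib 3.10.9, numpy 2.4.6, pandas 2.3.3, scipy 1.17.1 and scikit-learn 1.9.0. Promoter sequences were RefSeq's, on GRCm38.p6, and gene positions and coding lengths came from GENCODE on GRCm38.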

Additional observations from a re-analysis of the deposited data

Results flagged for a closer look

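With all gated cells counted, the summed ribosomal protein level had ratios of opposite sign in different cell types of 1 comparison. The difference between types was not tested, since each group is 1 library. For ConA+Veh over Naïve the log2 ratio was 0.22 in B cells and 0.24 in NK cells but -0.021 in T cells. For ConA+FICZ over ConA+Veh it was 0.051 in B cells, 0.052 in T cells and 0.055 in NK cells but -0.20 in mononuclear phagocytes. The T cell values changed sign under other settings, given below, so no direction is given for T cells. The NK cell value for FICZ ranged from -0.16 to 0.083 over 7 settings, the mononuclear phagocyte value for FICZ from -0.43 to -0.048, and that for ConA+Veh over Naïve from -0.19 to 0.27.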

How the results depend on the processing

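Values are log2 ratios of summed ribosomal protein CPM, and with 1 library per group they have no replicate check. In B cells, for ConA+Veh over Naïve, reported as 0.22, the ratio was 0.24 without cells under 200 genes or over 10% mitochondrial UMIs, 0.21 in cells of 1000 to 5000 UMIs, 0.28 in such cells with at most 10% mitochondrial UMIs, 0.28 as a median over cells, 0.21 without mitochondrial genes in the total, 1.43 for mean UMIs per cell and 0.21 in Leiden clusters. In T cells the same settings, against -0.021, gave 0.036, -0.74, -0.092, 0.041, -0.031, 1.58 and 0.028. For ConA+TCDD over ConA+Veh in B cells, against 0.0026, the cell filter gave 0.012, the median over cells -0.020, the total without mitochondrial genes 0.0081 and mean UMIs per cell -0.14. In T cells, against 0.075, the 7 settings in the first order gave 0.046, 0.63, 0.29, 0.13, 0.067, -0.092 and 0.080. For ConA+FICZ over ConA+Veh in B cells, against 0.051, the filter gave 0.030, the depth band 0.17, the band with the filter 0.12, the median 0.075, mean UMIs per cell 0.00016 and clusters 0.063. In T cells, against 0.052, the filter gave -0.0049, the band 0.53, the band with the filter 0.060, the total without mitochondrial genes 0.039, mean UMIs per cell 0.17 and clusters 0.061. Counts of members past 1.5-fold in B and T cells stayed within 1.5 times the reported ones without the UMI minimum, per 1000000 UMIs outside ribosomal protein and mitochondrial genes, with the cell filter and in Leiden clusters. In cells of 1000 to 5000 UMIs they did not: for ConA+Veh over Naïve in T cells 49 against 12, for ConA+TCDD over ConA+Veh in T cells 47 against 0, and for ConA+FICZ over ConA+Veh 29 in T cells and 1 in B cells against 0. With at most 10% mitochondrial UMIs as well, the last 3 counts were 2, 1 and 1. No share of all genes was computed in cells of that depth. Alternatives for single members were run only for *Rps27*, *Rps27l*, *Rps29*, *Rps28*, *Rpl38*, *Rpl37a*, *Rpl13a*, *Rps2*, *Rplp0*, *Rpl14*, *Rps18* and *Rpl6*. Other called members, such as *Rpl7a*, *Rpl15*, *Rps7* and *Rps21*, had no such check. Of 75 alternative values of the checked members that were past 1.5-fold in B or T cells 1 changed sign, *Rpl14* in T cells of 1000 to 5000 UMIs (-0.27). Of 285 such values of members within 1.5-fold, 34 changed sign. Of 130 alternative values of sums, all from sums within 1.5-fold, 26 changed sign. The depth band with the filter, the member counts in the band and in clusters, and all settings for single members and for NK cells, mononuclear phagocytes and T cell states, were added after the data had been seen. No Naïve cycling T cell lay in the depth band, so that ratio has no value there. The cause of the shifts was not tested. No paired analysis was possible because each group is 1 library and the labels give no replicate numbers.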

Other observations

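B cells with activation markers (at least 2 of *Mreg*, *Cd86* and *Cd200*) were 24 of 1083 B cells in Naïve and 33 of 823 in ConA+Veh. In ConA+TCDD they were 57 of 413 and in ConA+FICZ 27 of 777. In the same order of groups they held 32.8%, 34.9%, 35.8% and 37.5% of their UMIs in ribosomal protein genes. The remaining B cells held 30.4%, 35.8%, 35.8% and 37.0%, so that the ConA libraries were above Naïve in both. The B cells with activation markers were fewer than 50 in Naïve, ConA+Veh and ConA+FICZ. Their median depth also differed, with 2994, 11473, 4203 and 8166 UMIs in the same order of groups.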
